A study of Rattus norvegicus with 2 samples.

Results

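The SR proteins, the heterogeneous nuclear ribonucleoproteins (hnRNPs) and the RBM proteins (named for an RNA-binding motif) are RNA-binding proteins that select splice sites and carry pre-mRNA through its maturation. Their genes were taken by symbol from a table of gene expression in the rat retina: every row whose symbol starts with Srsf and a digit, with Hnrnp, or with Rbm and a digit. This gave 70 of 32662 rows, of which 11 were SR protein genes, 21 were hnRNP rows and 38 were RBM genes. The retinas came from Long-Evans rats aged 2 months. CTRL was a retina after a sham procedure, and IR12 was a retina collected 12 hours after reperfusion, when blood flow had returned following a period of ischemia. RNA was sequenced after removal of ribosomal RNA, with 1 library per group, to compare RNA between injured and uninjured retina. The labels name no separate animals as replicates, so the differences below have no replicate check.

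SR proteins join RNA recognition motifs to a tail of arginine and serine repeats, bind exonic enhancers and help the spliceosome to define exons, and kinases of the SRPK and CLK families phosphorylate their tails. Many hnRNPs coat nascent transcripts and keep splice sites from being used, so the balance between both families shapes alternative splicing, while the RBM name covers proteins of varied function, from spliceosome components to regulators of RNA decay. The retina depends on splicing to an unusual degree, since inherited defects in general spliceosome genes such as Prpf8 and Prpf31 cause degeneration of photoreceptors.

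The authors deposited expression as FPKM, in which reads are scaled to the length of the transcript and to the library. Changes were computed as the log2 ratio of FPKM + 1, IR12 over CTRL, a scale that understates the change of genes with low values. Fold changes below are on the same scale, and the most abundant gene of a group, or the gene that leads it, is that with the highest mean FPKM of both libraries. A gene was counted where its mean FPKM over both libraries was at least 1, which held for 13186 genes and for 60 of the 70 rows.

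All 11 SR protein genes, 18 of the 21 hnRNP rows and 31 of the 38 RBM genes reached this minimum. Hnrnpab, Rbm12, Rbm39 and a second Hnrnpa3 row on chromosome 10 were listed at 0 in both libraries. A listed 0 may be a missing estimate and is not read here as a silent gene. Rbm31y was listed at 0 in CTRL and at 0.0217 FPKM in IR12. Hnrnpa0, which binds AU-rich stretches of stress-related mRNAs, had 0.371 FPKM in CTRL and 0.271 FPKM in IR12. Rbm20, a regulator of titin splicing in muscle, had 0.831 and 0.481 FPKM. Rbm38 had 0.0873 and 0.256 FPKM, Rbm44 had 0.276 and 0.152 FPKM, and Rbm47 had 0.273 and 0.355 FPKM, so none of these genes is described further.

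Over all genes the median log2 ratio was 0.02, with 1884 genes at least 1.5-fold higher in IR12 and 1761 at least 1.5-fold lower. When the FPKM of each library was scaled to an equal sum (the TPM scale), the median over all genes was 0.60, a shift of 0.58 that left 85.2% of genes higher in IR12, and these counts became 6821 and 679. A value on the TPM scale is therefore to be read against this median of 0.60, and values called relative to the median gene have it taken off. Small RNA genes held 67.9% of the FPKM sum in CTRL and 46.3% in IR12, and an equal sum without them gave a median of -0.06. Which of these scalings makes the libraries comparable cannot be told from the values, so directions close to the median gene are uncertain. Relative to the median gene, 39 of the 60 members were higher and 17 were lower under all 3 of these scalings, and Rbm4b, Rbm43, Hnrnpl and Hnrnpll changed sides. Before that correction, 17 of the 18 members lower in IR12 as deposited were higher on the TPM scale, and 9 higher as deposited were lower with an equal sum without small RNA genes.

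The hnRNP genes differed most from the median gene as a family and the SR protein genes least. As deposited, 14 of 18 hnRNP genes were higher in IR12, compared with 22 of 31 RBM genes, 6 of 11 SR protein genes and 51.9% of all genes, while on the TPM scale all hnRNP and SR protein genes and 30 RBM genes were higher. The median log2 ratio was 0.21 for the hnRNP genes, 0.13 for the RBM genes and 0.03 for the SR protein genes, and the last of these was -0.06 with an equal sum without small RNA genes. Relative to the median gene on the TPM scale these medians were 0.26, 0.12 and 0.07. At least 1.5-fold higher in IR12 were 3 hnRNP genes, 2 RBM genes and 0 SR protein genes, against 14.3% of all genes. As deposited the share was 16.7% of the hnRNP genes, above that of all genes, and 6.45% of the RBM genes, below it, but both comparisons turn with the scaling. Centred on the median gene it was 11.1% of the hnRNP genes against 13.5% of all genes, and on the TPM scale it was 74.2% of the RBM genes against 51.7%. At least 1.5-fold lower was 1 member, Rbm24, against 13.4% of all genes, and it was also the 1 member past 2-fold in either direction, against 12.3%. With an equal sum without small RNA genes Srsf6 was past 1.5-fold lower too (-0.60). In bulk tissue, fewer cells of a type and less RNA per cell cannot be told apart.

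**Figure D1:**
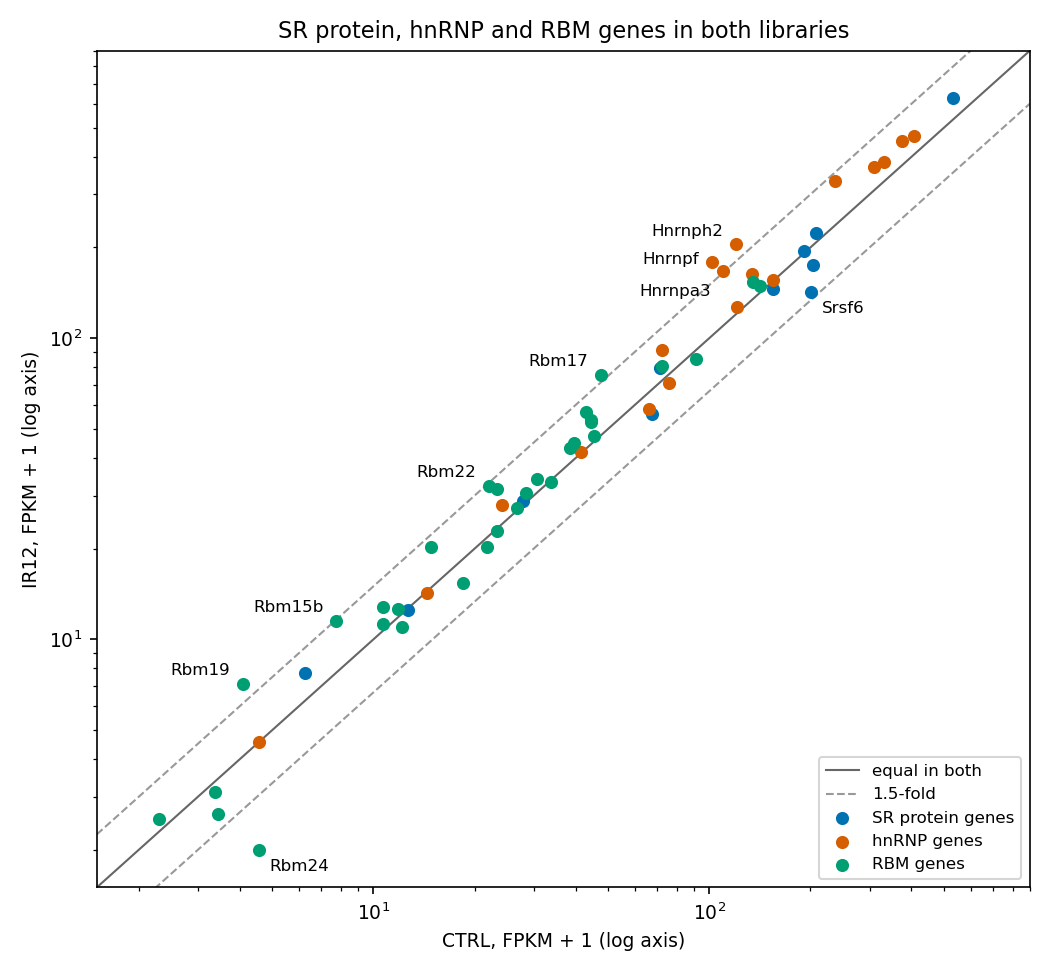
Levels (FPKM + 1, as deposited) of CTRL on the x axis and IR12 on the y axis, both on log axes, for the 60 SR protein, hnRNP and RBM genes with a mean FPKM of at least 1, where the solid line marks equal values and the dashed lines a 1.5-fold difference. Hnrnpf, Hnrnph2, Hnrnpa3, Rbm17 and Rbm19 lie above the upper line and Rbm24 below the lower one, while on the TPM scale Rbm24 remains lower and the others higher.

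The SR protein genes were expressed at high levels. Their median FPKM in CTRL was 153, at the 95.6th percentile of all genes, and their summed FPKM was 1664 in CTRL and 1685 in IR12. The sum in IR12 was 1.01 times that in CTRL as deposited, 1.59 times on the TPM scale and 0.948 times with an equal sum without small RNA genes. Srsf5, Srsf3 and Srsf1 made up 55.7% of the sum in CTRL and 62.0% in IR12.

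Srsf5, known for its part in insulin-regulated splicing of a protein kinase C gene, had the highest level of the family, with 531 FPKM in CTRL and 628 FPKM in IR12 (log2 ratio 0.24). Srsf3, the smallest SR protein and an adaptor for mRNA export, had 206 and 222 FPKM (0.11). Srsf1, the founding member of the family and a general splicing factor, had 189.8 and 194 FPKM (0.03), and its log2 ratio was -0.06 with an equal sum without small RNA genes. These 3 genes were all slightly above the median gene under each scaling. Srsf4, the member with the longest arginine and serine tail, had 26.8 FPKM in CTRL and 27.8 FPKM in IR12 (0.05, and -0.04 with an equal sum without small RNA genes).

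The other classical SR protein genes were lower in IR12 as deposited and higher on the TPM scale, where each was nevertheless below the median gene. Srsf6, which acts on exon 10 of the tau gene among other targets, had 200.3 FPKM in CTRL and 141 FPKM in IR12. This was the largest change of the family, 1.42-fold lower, with a log2 ratio of -0.50 as deposited and 0.14 on the TPM scale, or -0.46 relative to its median gene. Srsf2, a marker of nuclear speckles, had 202 and 174 FPKM, a log2 ratio of -0.22 as deposited, 0.43 on the TPM scale and -0.18 relative to its median gene. In CTRL, Srsf2 and Srsf6 were thus close to Srsf3 and Srsf1 in level, while in IR12 Srsf6 was the lowest of these 4. Srsf7, which carries a zinc knuckle and takes part in mRNA export, had 153 and 145 FPKM (-0.08, and 0.56 on the TPM scale or -0.04 relative to its median gene), and Srsf9, with a short tail, had 11.7 and 11.5 FPKM (-0.02, and 0.58 on the TPM scale or -0.03 relative to its median gene).

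The atypical members, which can repress as well as activate exons, split in direction. Srsf11, known from neuronal microexons, had 66.6 FPKM in CTRL and 54.8 FPKM in IR12, a log2 ratio of -0.28 as deposited and -0.24 relative to the median gene of the TPM scale, though 0.36 before that correction. Srsf10, which turns into a general repressor when it loses its phosphates, had 70.2 and 78.8 FPKM (0.16). Srsf12, an antagonist of other SR proteins, had the lowest level of the family, with 5.27 and 6.70 FPKM (0.30).

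The bases upstream of the start of Srsf6 are shown as those of the SR protein gene with the largest change. The sequence is from RefSeq on GRCr8 and gives the 120 bases before the start of the gene, 5′ to 3′. It lies at chr3:172008952-172009071 on the plus strand. Capitals mark matches, on either strand and with overlaps allowed, to the CCAAT box (CCAAT), the GC box (GGGCGG), the E-box (CACGTG), the core of the heat shock element (GAANNTTC) and the TATA box (TATAAA), 5 motifs chosen after the values were seen. Here they mark 1 GC box on the opposite strand, and a match describes the letters only.
Srsf6: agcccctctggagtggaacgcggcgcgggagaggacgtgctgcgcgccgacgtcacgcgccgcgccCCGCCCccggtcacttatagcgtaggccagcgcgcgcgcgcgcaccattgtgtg

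The hnRNP genes also lay high in the range of expression, with a median of 114 FPKM in CTRL and 159 FPKM in IR12. Their sum was 2680 FPKM in CTRL and 3294 FPKM in IR12, 1.23 times as high as deposited and 1.93 times on the TPM scale. All 11 hnRNP genes with a mean of at least 100 FPKM were higher in IR12 as deposited, compared with 490 of all 991 genes in that range, although Hnrnpl and Hnrnpm among them were lower with an equal sum without small RNA genes. In the range from 10 to 100 FPKM, 3 of 6 hnRNP genes were higher, against 56.1% of all genes in that range.

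Genes of the F/H group, whose proteins bind runs of G near splice sites, ranged in level from the lowest to the highest of the hnRNP genes counted. Hnrnpf, at chr4:149957206-149978895 on rn6, had 101 FPKM in CTRL and 179 FPKM in IR12. It was 1.76-fold higher, a log2 ratio of 0.82 as deposited and 0.86 relative to the median gene of the TPM scale. Hnrnph2, at chrX:105419285-105422861 on rn6, had 119 and 204 FPKM and was 1.72-fold higher (0.78 and 0.82 on these scales). Hnrnph1, the most abundant hnRNP gene, had 405 FPKM in CTRL and 468 FPKM in IR12 (0.21). The 3 genes were therefore closer to each other in level in IR12 than in CTRL. Hnrnph3 had 3.55 FPKM in both libraries, but its listed locus also holds Rufy2, which was listed at 0, and its log2 ratio was -0.00 as deposited, 0.51 on the TPM scale and -0.10 relative to its median gene. The proteins of Hnrnph1, Hnrnph2 and Hnrnpf are close paralogs, and how the deposited values divide reads that fit more than 1 of them is uncertain.

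In the A/B and D group, 4 of 5 genes were higher as deposited, against 51.9% of all genes, with a median log2 ratio of 0.28. Hnrnpa3, at chr3:62481323-62487227 on rn6, had 109 FPKM in CTRL and 165 FPKM in IR12 and was 1.51-fold higher (0.60, and 0.63 relative to the median gene of the TPM scale). When centred on the median gene it was at 0.57, below 1.5-fold. Hnrnpa1, a repressor of exons and splice sites with roles in microRNA processing, had 236 and 331 FPKM, 1.40-fold higher (0.49). Both have many processed copies in mammalian genomes, so the assignment of reads to them is uncertain. Hnrnpa2b1, which carries mRNAs along neuronal processes, had 374 and 449 FPKM (0.26), and Hnrnpdl had 133 and 162 FPKM (0.28). Hnrnpd, known for binding AU-rich elements and speeding mRNA decay, went the other way, with 74.7 and 69.8 FPKM (-0.10 as deposited, 0.54 on the TPM scale and -0.06 relative to its median gene). Hnrnpd and Hnrnpdl are neighbours on chromosome 14, 53598 bases apart on rn6, so adjacent paralogs differed in direction as deposited.

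The bases before the start are shown for Hnrnpa3 and Hnrnph2, the hnRNP genes past 1.5-fold with 1 listed start, so that their motifs can be compared. Hnrnpf has 3 listed starts and is not shown. The sequences are from RefSeq on GRCr8, both on the plus strand, at chr3:80985814-80985933 for Hnrnpa3 and chrX:102074129-102074248 for Hnrnph2, with the same motifs in capitals. Hnrnpa3 holds 1 CCAAT box and 3 GC boxes, with overlap between a pair of these, and Hnrnph2 holds 2 E-boxes.
Hnrnpa3: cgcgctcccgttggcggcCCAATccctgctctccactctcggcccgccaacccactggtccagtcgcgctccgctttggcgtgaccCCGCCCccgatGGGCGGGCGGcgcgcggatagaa
Hnrnph2: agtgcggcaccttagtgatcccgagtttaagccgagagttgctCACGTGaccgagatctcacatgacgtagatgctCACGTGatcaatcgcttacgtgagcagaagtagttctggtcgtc

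Among the other groups, Hnrnpu, a nuclear scaffold protein that binds chromatin and RNA, had 330.1 FPKM in CTRL and 385 FPKM in IR12 (0.22). Its relative Hnrnpul1 had 71.2 and 90.1 FPKM (0.33), whereas Hnrnpul2 had 65.1 and 57.2 FPKM, the lowest log2 ratio of the family (-0.18 as deposited, but 0.45 on the TPM scale and -0.15 relative to its median gene). The U group thus held members on both sides of the median gene. Hnrnpk, which binds C-rich RNA and DNA, had 307 and 368 FPKM (0.26), and its listed locus also holds Mir7a-1. Hnrnpc, which binds runs of U and keeps cryptic exons silent, had 23.2 and 26.9 FPKM (0.21). Smaller differences were found for Hnrnpm (0.07), Hnrnpll (0.02) and Hnrnpl (0.01), of which all were lower with an equal sum without small RNA genes, and Hnrnpll shares its listed locus with a small RNA gene. Hnrnpl, which binds CA repeats, was among the abundant ones, with 154 and 155 FPKM. Hnrnpr, a relative of Syncrip that binds axonal mRNAs, had 13.4 and 13.2 FPKM (-0.02 as deposited, 0.58 on the TPM scale and -0.02 relative to its median gene).

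RBM genes had lower levels than both other families, with a median of 22.4 FPKM in CTRL and 29.6 FPKM in IR12. Their sum was 1026 FPKM in CTRL and 1155 FPKM in IR12. Rbm5, Rbm3 and Rbm26 were the most abundant and made up 35.5% of the sum in CTRL and 33.3% in IR12.

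Components of the spliceosome or of the exon junction complex were higher in 5 of 6 cases as deposited, against 51.9% of all genes, with a median log2 ratio of 0.21. Rbm17, which takes part in the choice of the 3′ splice site and lies at chr17:70586394-70603267 on rn6, had 46.6 FPKM in CTRL and 74.6 FPKM in IR12. It was 1.59-fold higher (0.67, and 0.70 relative to the median gene of the TPM scale). With an equal sum without small RNA genes it was at 0.57, just below 1.5-fold. Rbm22, which holds RNA in the active site of the spliceosome, had 21.1 and 31.4 FPKM and was 1.47-fold higher (0.55). Both genes thus moved further than Rbm8a (0.15), a core subunit of the exon junction complex, Rbm42 (0.27) and Rbm48 (0.09), whose listed locus also holds LOC500007. Rbm41 was the exception, with 11.1 and 10.03 FPKM (-0.14 as deposited, 0.45 on the TPM scale and -0.15 relative to its median gene).

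All 3 genes of ribosome biogenesis and both genes of the m6A writer complex were higher in IR12 as deposited, as were 51.9% of all genes, although Rbm28 was at -0.01 with an equal sum without small RNA genes. Rbm19, needed to process pre-ribosomal RNA and at chr12:41907740-41993957 on rn6, had 3.08 FPKM in CTRL and 6.12 FPKM in IR12. It was 1.75-fold higher (0.80, and 0.73 relative to the median gene of the TPM scale). Rbm34 (0.18) and Rbm28 (0.07) of the same group differed less. Rbm15b, which guides the m6A methyltransferase to its targets, had 6.75 and 10.5 FPKM and was 1.49-fold higher (0.57), while its paralog Rbm15 had 27.5 and 29.6 FPKM (0.10). The less abundant paralog therefore showed the larger ratio.

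Regulators of alternative splicing held the member with the largest change. Rbm24, a splicing regulator of muscle that is also expressed in other tissues and lies at chr17:18671044-18682876 on rn6, had 3.55 FPKM in CTRL and 1.001 FPKM in IR12. It was 2.28-fold lower (-1.19), and it was the 1 member lower under all 4 scalings, at -0.78 on the TPM scale or -1.38 relative to its median gene. At such low levels the value depends on the pseudocount, and with 0.1 in place of 1 the log2 ratio was -1.73. Rbm11, a splicing regulator of brain and testis, had 2.44 and 1.63 FPKM (-0.38 as deposited, 0.05 on the TPM scale and -0.56 relative to its median gene). Both lay at the low end of the range, at percentiles 20.3 and 13.9 of all genes in CTRL. Markers described below had median log2 ratios as deposited of -2.42 for lens, -1.93 for Müller glia and 1.77 for leukocytes. The part of such differences in the values of Rbm24 and Rbm11 was not tested.

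Rbm5, which regulates exons of apoptosis genes, had 140.2 FPKM in CTRL and 148 FPKM in IR12 (0.08, but -0.02 with an equal sum without small RNA genes). Its neighbour Rbm6, 3233 bases away on chromosome 8 of rn6, had 71.3 and 79.9 FPKM (0.16). Rbm10, the third paralog of this set, had 22.4 and 30.6 FPKM (0.43) and moved furthest of them. Rbm25 was at 0.25. Rbm4 (0.06) and Rbm4b (-0.02) are near-identical paralogs, and Rbm4 shares its listed locus with Rbm14 (-0.10), so the values of all 3 are uncertain. On the TPM scale Rbm4b and Rbm14 were at 0.61 and 0.52, or 0.00 and -0.09 relative to its median gene.

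Rbm3, a protein induced by mild cold and linked to survival of neurons, had 134 FPKM in CTRL and 152 FPKM in IR12 (0.18, and 0.22 relative to the median gene of the TPM scale). Among genes of nuclear RNA turnover, Rbm7 was at 0.27 and Rbm27 at 0.16, on the same side of the median gene as Rbm3, while Rbm26 was on the other side. Rbm26 had 90.4 and 84.4 FPKM (-0.10 as deposited, 0.54 on the TPM scale and -0.06 relative to its median gene). Of the genes in no such group, Rbm45, found in protein inclusions of motor neuron disease, had 13.9 and 19.2 FPKM (0.44). Rbm18 was at 0.40 and Rbm43 at 0.13. Rbm46, a factor of germ cells, had 17.5 and 14.3 FPKM (-0.27 as deposited, 0.34 on the TPM scale and -0.26 relative to its median gene). Rbm12b had 2.38 and 2.10 FPKM (-0.12 as deposited, 0.33 on the TPM scale and -0.28 relative to its median gene). Rbm33 was at -0.03 as deposited, 0.59 on the TPM scale and -0.01 relative to its median gene, and Rbm25l1 was at 0.04.

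**Figure D2:**
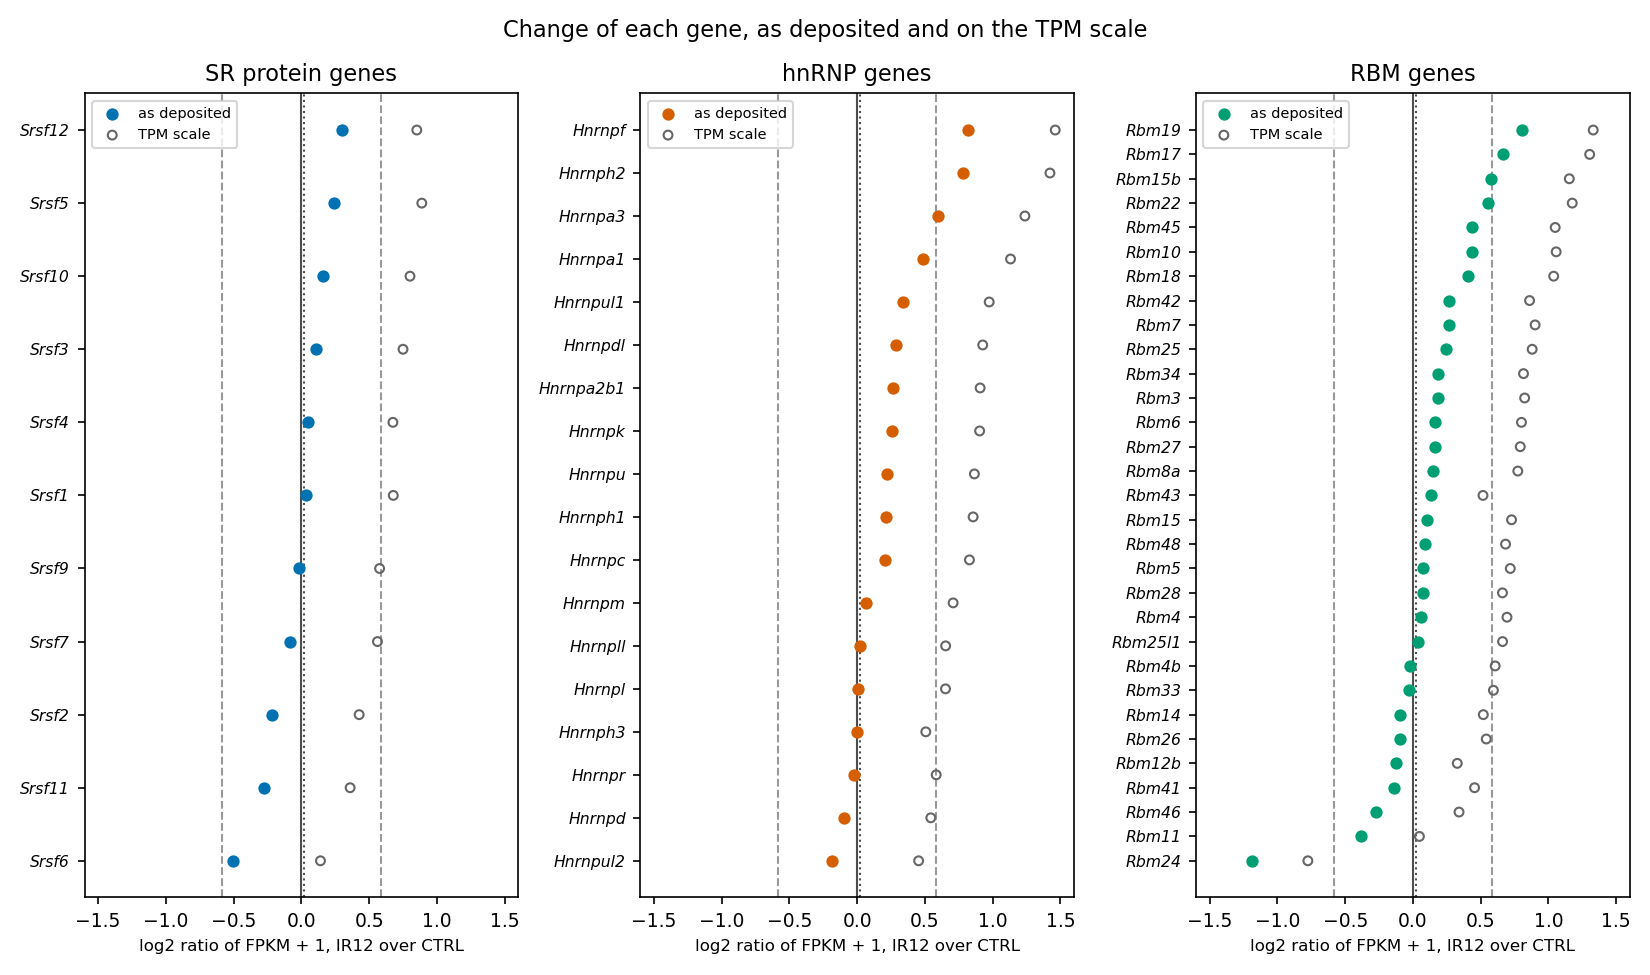
Log2 ratio of FPKM + 1, IR12 over CTRL, for each SR protein, hnRNP and RBM gene with a mean FPKM of at least 1 (1 row per gene), with filled points for FPKM as deposited and open points for the TPM scale, where the solid line marks 0, the dotted line the median of all genes as deposited (0.02) and the dashed lines a 1.5-fold difference. Every member except Rbm24 lies above 0 on the TPM scale, while 18 members lie below 0 as deposited.

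The bases before the start of Rbm17, Rbm19 and Rbm24 are shown because these were the RBM genes past 1.5-fold. From RefSeq on GRCr8, they lie at chr17:71846821-71846940 on the plus strand for Rbm17, at chr12:42111531-42111650 on the minus strand for Rbm19 and at chr17:18493629-18493748 on the minus strand for Rbm24. None of the 5 motifs occurs in these 3 windows, so no base is in capitals.
Rbm17: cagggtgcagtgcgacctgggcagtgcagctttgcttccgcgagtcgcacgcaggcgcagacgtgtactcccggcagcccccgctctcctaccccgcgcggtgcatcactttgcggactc
Rbm19: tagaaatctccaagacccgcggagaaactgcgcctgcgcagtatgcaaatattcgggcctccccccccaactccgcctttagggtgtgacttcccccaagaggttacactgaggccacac
Rbm24: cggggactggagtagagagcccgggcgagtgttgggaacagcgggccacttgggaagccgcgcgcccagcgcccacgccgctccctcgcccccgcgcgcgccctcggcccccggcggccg

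Starts were found in RefSeq for 63 of the 69 member symbols, 70 starts in all. Named without a start are Hnrnpll, Rbm11, Rbm12, Rbm12b, Rbm20 and Rbm4. In the 120 bases before the start, the CCAAT box occurred at 41.4% of the members' starts and at 19.9% of all 33469 starts. The GC box occurred at 40.0% and 23.7%, the E-box at 8.57% and 3.17%, the core of the heat shock element at 4.29% and 3.66%, and the TATA box at 5.71% and 6.66%. In a window of 250 bases, the CCAAT box was found at 16 of 22 hnRNP starts, 5 of 12 SR protein starts and 17 of 36 RBM starts, against 34.0% of all starts. The GC box was found at 16 hnRNP, 9 SR protein and 14 RBM starts, against 30.5%. The CCAAT box was thus most frequent at hnRNP starts (72.7%), and the GC box at SR protein starts (75%, against 72.7% of hnRNP starts). Starts and not genes were counted, with 3 for Hnrnpf, and no link between motif and change was tested.

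The wider splicing machinery was read from lists of related genes, on which Bclaf1, Scaf11 and Qki had no row and Pcbp1 and 1 of the rows of Snrpg were listed at 0. Core spliceosome proteins were higher in 56 of 60 genes as deposited and in all 60 on the TPM scale, against 51.9% and 85.2% of all genes, with a median log2 ratio of 0.35. At least 1.5-fold higher were 11 of them (18.3%, against 14.3% of all genes) and at least 1.5-fold lower 0. This comparison turns with an equal sum without small RNA genes, where 6 were at least 1.5-fold higher against 12.0% of all genes, while on the TPM scale 55 were, against 51.7%. Snrpa1, a protein of the U2 particle, had 22.2 FPKM in CTRL and 51.0 FPKM in IR12, the largest difference of the list and 2.24-fold higher. Sf3b1, which recognises the branch point and was the most abundant, had 189 and 225 FPKM (0.25). Lsm5 had the lowest log2 ratio, with 60.0 and 46.2 FPKM (-0.37 as deposited and 0.27 on the TPM scale). The median of this list relative to the median gene was 0.33, above those of all 3 families.

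Regulators of splicing in neurons and other specific cell types went the opposite way as deposited. Of the 25 genes counted, from 29 with a row, 20 were lower in IR12 (80%, against 48.1% of all genes) and 9 at least 1.5-fold lower (36%, against 13.4%), with a median log2 ratio of -0.32. On the TPM scale 17 were higher, against 85.2% of all genes, 0 were at least 1.5-fold lower, against 679 of all 13186 genes, and the median was 0.32, or -0.29 relative to the median gene. Rbfox1, a regulator of neuronal exons, had 23.1 FPKM in CTRL and 10.8 FPKM in IR12, 2.05-fold lower (-1.04 as deposited and -0.43 on the TPM scale). Msi2, the most abundant, had 174 and 165 FPKM (-0.08, and 0.56 on the TPM scale). Mbnl1, known from myotonic dystrophy, had the highest log2 ratio, with 64.8 and 97.5 FPKM (0.58). Cell type markers, described below, had median log2 ratios as deposited of -0.43 for bipolar and amacrine cells and -0.16 for ganglion cells. The medians were -1.93 for Müller glia and 0.00 for rods, and the part of such differences in the values of the cell-type regulators was not tested. The medians of core spliceosome genes and of cell-type regulators lay on different sides of the median gene, and the medians of the families described above lay between them. Single genes spread further. As deposited, 53 of 60 core spliceosome genes and 5 of 25 cell-type regulators were above the median gene.

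Kinases of SR proteins were higher in 7 of 9 genes as deposited and in all on the TPM scale, against 51.9% and 85.2% of all genes, with a median of 0.22. Srpk1 had 37.0 FPKM in CTRL and 62.7 FPKM in IR12 and was 1.67-fold higher (0.74). Its paralog Srpk2 had 110 and 80.4 FPKM (-0.45 as deposited, 0.20 on the TPM scale). The ratio of Srpk1 to Srpk2 was thus higher in IR12 under any scaling. Clk1, the most abundant of the list, had 310 and 307 FPKM (-0.01, and 0.63 on the TPM scale). Among the 24 SR-related and U2 auxiliary genes, 14 were higher as deposited, close to the 51.9% of all genes, and all on the TPM scale, and the median was 0.09. With an equal sum without small RNA genes 12 were higher and the median was -0.00. U2af1, the subunit that reads the end of the intron, had 50.1 and 93.0 FPKM and was 1.84-fold higher (0.88). Srrm1 had 47.9 and 32.3 FPKM (-0.55, and 0.08 on the TPM scale), and Luc7l3, the most abundant, had 241 and 206 FPKM (-0.22, and 0.42 on the TPM scale).

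Proteins of the hnRNP type with other names had a median of 0.14 over 18 genes, of which 12 were higher as deposited, against 51.9% of all genes, and 16 on the TPM scale, close to the 85.2% of all genes. Ptbp1, a repressor of neuronal exons, had 11.9 FPKM in CTRL and 28.1 FPKM in IR12 and was 2.25-fold higher (1.17). Ptbp2, its paralog in neurons, had 144 and 118 FPKM (-0.28, and 0.36 on the TPM scale), named here after its value was seen. Ptbp1 therefore came closer to Ptbp2 in level without reaching it. Pcbp2, which binds C-rich RNA, had 161 and 93.4 FPKM, the lowest log2 ratio of the list and 1.72-fold lower (-0.78, and -0.14 on the TPM scale). Nono, a paraspeckle protein and the most abundant, had 188 and 215 FPKM (0.20).

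Of the 14 genes of the exon junction complex and nonsense-mediated decay, 11 were higher as deposited and all on the TPM scale, against 51.9% and 85.2% of all genes, with a median of 0.18. Smg9 had 2.95 FPKM in CTRL and 5.57 FPKM in IR12 (0.74). Upf3b, both the most abundant gene and the one with the lowest log2 ratio, had 216 and 180.1 FPKM (-0.26, and 0.38 on the TPM scale). RBM genes outside the symbol rule had a median of 0.06 over 10 genes as deposited and -0.03 with an equal sum without small RNA genes. Rbms1 had the highest log2 ratio there, with 4.89 and 9.31 FPKM (0.81), and Rbpms2 the lowest, with 5.68 and 2.92 FPKM (-0.77, and -0.25 on the TPM scale). Rnps1, which is also on the list of SR-related genes, was the most abundant, with 69.2 and 93.5 FPKM (0.43).

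**Figure D3:**
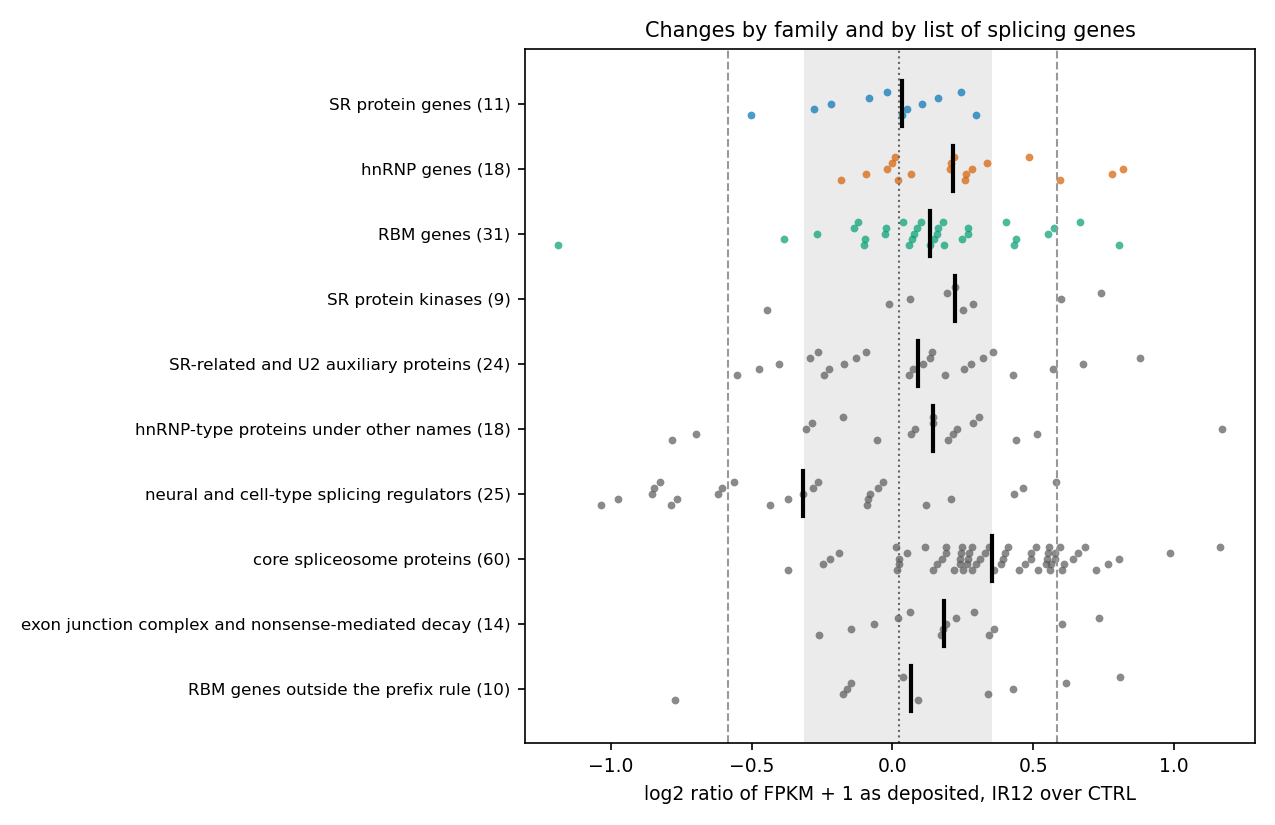
Log2 ratio of FPKM + 1 as deposited, IR12 over CTRL, by family and by list of splicing genes, with the number of genes in brackets, where each point is 1 gene, black bars are medians, the grey band spans the quartiles of all genes around their median (dotted line), and dashed lines mark 1.5-fold. The neural and cell-type regulators have a median of -0.32 and the core spliceosome proteins of 0.35, and on the TPM scale the first of these is 0.32, below its median gene.

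The tissue was checked against markers of its cell types, which bear on each family because these genes are expressed in many cell types. Rod photoreceptor markers were abundant in both libraries, and their sum was 19998 FPKM for CTRL and 22802 FPKM for IR12, 1.14 times as high as deposited and 1.79 times on the TPM scale. Of 11 rod genes found of 12 listed, 6 were higher as deposited, 10 on the TPM scale and 4 with an equal sum without small RNA genes. Among all genes, 51.9%, 85.2% and 44.9% were higher on these scales. Of the rod genes, 5 were above the median gene as deposited and 7 on the TPM scale. Müller glia markers, led by Glul, had a sum of 1628 FPKM in CTRL and 573 FPKM in IR12, and 7 of 8 were at least 2-fold lower, or 5 on the TPM scale. Vim was the exception, with 121 and 221 FPKM, and exceeded Glul in IR12. Kcnj10 was below 1 FPKM in IR12 and was counted through its level in CTRL. Bipolar and amacrine cell markers, led by Calb2, had 910 and 607 FPKM, and all 9 were lower as deposited, although 5 were higher on the TPM scale, where the sum was 1.05 times as high. On both scales 0 of these 9 were above the median gene, and on the TPM scale their median was -0.43 relative to it. Ganglion cell markers, led by Nefl, had 386 and 307 FPKM, and 6 of 8 genes counted of 9 were lower as deposited but 2 on the TPM scale, where the sum was 1.25 times as high. Of these 8, 1 was above the median gene as deposited and 2 on the TPM scale, where their median was -0.14 relative to it.

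Markers of cells from outside the neural retina differed as well. Leukocyte markers, led by Lyz2, had a sum of 21.8 FPKM in CTRL and 138 FPKM in IR12, and 9 of 10 genes were counted. These 9 were higher as deposited, and 8 with an equal sum without small RNA genes. Cx3cr1, below the minimum, was lower (1.16 and 0.676 FPKM). Cd68, Ptprc, Cd14, Itgam, S100a8 and S100a9 were below 1 FPKM in CTRL, S100a8 being listed at 0, and were counted through their level in IR12, so the count depends on the minimum. Lens markers, led by Cryba1, had 4261 and 595 FPKM, and 15 of 16 genes counted of 17 were at least 2-fold lower, or 12 on the TPM scale. Bfsp2 and Cryga were below 1 FPKM in IR12 and were counted through their level in CTRL. Pigment epithelium markers, led by Ttr, had 81.3 and 101 FPKM. Of 6 genes counted of 8, 4 were higher as deposited and 5 on the TPM scale, against 51.9% and 85.2% of all genes. Above the median gene were 4 as deposited and 3 on the TPM scale. Rdh5, higher in IR12, was below 1 FPKM in CTRL and was counted through its level in IR12. The higher sum came from Ttr (61.8 and 87.4 FPKM), since the other 7 genes had 19.5 and 13.9 FPKM as deposited, although on the TPM scale their sum was 1.12 times as high. Rpe65 had 11.1 and 4.88 FPKM and was 2.05-fold lower as deposited. Blood markers, of which 3 of 5 were found and only Hbb was counted, had 20.8 and 35.4 FPKM. Injury response genes, led by Timp1, had 16.6 and 575 FPKM, and all 10 were higher under each scaling. Cebpd, Lif, Socs3, Hmox1, Ccl2 and Fosl1 were below 1 FPKM in CTRL, Fosl1 being listed at 0, and were counted through their level in IR12. No other marker was listed at 0. The part of these differences in the changes of the SR protein, hnRNP and RBM genes and of the lists of splicing genes was not tested.

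**Figure D4:**
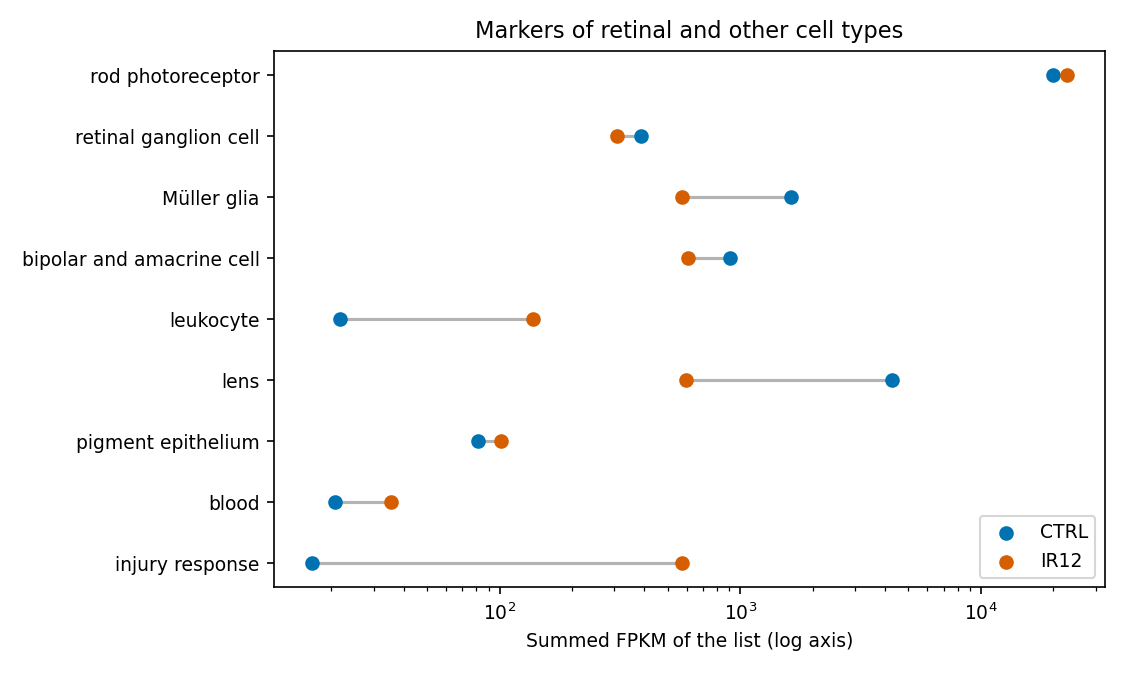
Summed FPKM as deposited (x axis, log) of each list of cell type or injury markers in CTRL and IR12, with 1 point per library. Müller glia and lens markers are lower in IR12 and leukocyte and injury response markers higher, also on the TPM scale. Ganglion, bipolar and amacrine cell markers are lower as deposited and higher on the TPM scale. Both lists nevertheless have a median log2 ratio below the median gene of that scale.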

How the data were processed

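The retinal libraries CTRL and IR12 were assigned by their titles, with 1 library each. The authors deposited gene expression as FPKM for Ensembl genes on rn6, and the submitters' processing notes name STAR 2.5.2b and Cuffdiff 2.2.0. Loci were taken from the deposited table, adding 1 to each start. FPKM was used as deposited, with a pseudocount of 1 and a minimum mean FPKM of 1, and differences were described by folds of 1.5 and 2 without p-values, since 1 library per group gives no error. Other settings tried were centring on the median gene, a pseudocount of 0.1, equal sums with all genes (TPM scale) or without small RNA genes (recognised by symbol), and other minimums. With values were given, per family, the 3 most abundant genes, the 5 largest rises and falls, members past 1.5-fold and Rbm3, and, per list, the most abundant gene, the largest rise and fall and genes past 2-fold. Other members with values, Ptbp2, the motifs, the promoters shown, the ranges of level and the sums on other scales were chosen after values were seen. Members and lists were chosen with earlier results of these data known. The calculation of folds was checked on simulated data, with large known changes set in well expressed genes. That check does not bear on smaller folds, on genes with low values or on the choice of scaling. Of the marker results, 1 is not reported here. Promoter motifs were searched in RefSeq sequences, and genes were matched by symbol. Python 3.11.15, numpy 2.4.6, pandas 2.3.3 and matplotlib 3.10.9 were used.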

Additional observations from a re-analysis of the deposited data

How the results depend on the processing

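Of 45 results, 31 moved by over 0.1 log2 or, for counts, by over 1.5 times on the TPM scale, 2 with an equal sum without small RNA genes, and 3 with a pseudocount of 0.1. With a minimum mean FPKM of 5, 4 moved and 38 did not, and Rbm11, Rbm19 and Rbm24 had no value. A minimum cannot move the log2 ratio of a single gene, and centring moves all of them by the same 0.02, so values that stayed there test little. Among the single genes in these results, none past 1.5-fold as deposited changed sign. Srsf6, not past 1.5-fold as deposited, did change sign, from -0.60 with an equal sum without small RNA genes to 0.14 by TPM. Celf2, a cell-type regulator outside these results, was past 1.5-fold lower as deposited (-0.62) but at 0.01 by TPM. The median of the SR protein genes was -0.06 with an equal sum without small RNA genes, and -0.02 relative to all genes with a minimum mean FPKM of 5. On the TPM scale the median log2 ratio was 0.68 for the SR protein genes, 0.86 for the hnRNP genes and 0.73 for the RBM genes. The genes at least 1.5-fold higher then numbered 6, 14 and 23 instead of 0, 3 and 2, and those past 2-fold were 4 hnRNP and 7 RBM genes instead of 0 and 1. This follows from the scaling, which raised all values of IR12. On that scale 51.7% of all genes were at least 1.5-fold higher and 24.7% were past 2-fold. With an equal sum without small RNA genes, 1 SR protein gene, Srsf6, was at least 1.5-fold lower instead of 0. At least 1.5-fold higher were then 1 RBM gene instead of 2 and 2 hnRNP genes instead of 3, with Hnrnpa3 at 0.50. With a pseudocount of 0.1, 3 RBM genes were at least 1.5-fold higher instead of 2, with Rbm15b at 0.64. With a minimum mean FPKM of 5, 1 RBM gene was at least 1.5-fold higher, 0 were at least 1.5-fold lower and 0 were past 2-fold, because Rbm19 and Rbm24 were no longer counted. The median of the RBM genes outside the symbol rule was then 0.16 relative to all genes instead of 0.04. No paired analysis was possible because each group has 1 library, and no library could be left out. Folds of low genes such as Rbm24 depend most on the pseudocount. Which genes small RNA reads affect was not tested.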
